A study of Mus musculus with 4 samples.

Results

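The Dlk1-Meg3 domain is a cluster of imprinted genes on mouse chromosome 12, and it is described here in embryonic stem cells with and without the Tet enzymes. The members were chosen by name: Dlk1, Meg3, Rtl1, Rian, Mirg and Dio3. Of these 6 genes, 5 are listed in the deposited expression files, among 22492 gene symbols in all, and Mirg is not among the listed symbols, nor is any of its synonyms. Methylation was read from 50 kb before the Dlk1 interval to 50 kb after the Dio3 interval (mm9 chromosome 12, 110641033 to 111569307), which held 8340 CpGs and 744 windows of 1 kb with at least 5 CpGs, of 14321696 CpGs and 1223855 such windows on the autosomes and X.

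The cells were E14Tg2a, a male mouse embryonic stem cell line, as unmodified cells (WT) and as TetTKO cells mutated in Tet1, Tet2 and Tet3 with CRISPR. Per the labels, guide RNAs for the 3 genes were transfected in 2i medium together with a plasmid for puromycin resistance, clones were picked, and no 5-hydroxymethylcytosine was detectable in the TetTKO cells. The labels do not say how many clones were used, nor that WT cells went through transfection and selection. Before analysis, WT and TetTKO cells spent no less than 17 days in serum culture (15% serum, LIF at 1000 units/ml). Each genotype gave a single library for whole-genome bisulfite sequencing and a single one for RNA, so no difference below has a replicate check.

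In this domain the gene copies inherited from the mother and from the father behave differently. The maternal copy makes the noncoding RNAs Meg3, Rian and Mirg and many microRNAs and small nucleolar RNAs, and the paternal copy makes the protein-coding Dlk1, Rtl1 and Dio3. The difference is set in the germ line at a control region between Dlk1 and Meg3 (the IG-DMR) that is methylated on the paternal copy, and a secondary methylated region lies over the Meg3 promoter. In mouse pluripotent cells, full methylation of this domain with loss of the maternal RNAs is a known defect, and Tet enzymes oxidise 5-methylcytosine, a first step of its removal.

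The 3 promoter sequences below carry the methylation values that follow, since the domain's RNAs start there. They run from 250 bases before to 50 after the gene start, were taken from RefSeq, and show each CpG in capitals. Their coordinates are of GRCm38.p6 and must not be set against the mm9 positions used elsewhere.
Dlk1 promoter, GRCm38.p6 chr12:109452573-109452872, plus strand: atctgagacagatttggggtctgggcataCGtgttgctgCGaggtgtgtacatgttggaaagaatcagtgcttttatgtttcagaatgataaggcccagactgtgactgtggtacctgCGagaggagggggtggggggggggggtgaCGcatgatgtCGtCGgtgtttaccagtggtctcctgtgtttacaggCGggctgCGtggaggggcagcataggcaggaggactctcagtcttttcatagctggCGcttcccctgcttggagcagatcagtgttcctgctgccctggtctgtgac
Meg3 promoter, GRCm38.p6 chr12:109540746-109541045, plus strand: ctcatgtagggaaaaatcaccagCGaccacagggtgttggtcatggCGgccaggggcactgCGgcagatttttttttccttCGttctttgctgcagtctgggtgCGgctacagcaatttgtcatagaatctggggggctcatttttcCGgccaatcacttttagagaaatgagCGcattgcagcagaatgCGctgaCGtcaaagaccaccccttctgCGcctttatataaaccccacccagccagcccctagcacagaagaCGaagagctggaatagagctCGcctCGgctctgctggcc
Dio3 promoter, GRCm38.p6 chr12:110278980-110279279, plus strand: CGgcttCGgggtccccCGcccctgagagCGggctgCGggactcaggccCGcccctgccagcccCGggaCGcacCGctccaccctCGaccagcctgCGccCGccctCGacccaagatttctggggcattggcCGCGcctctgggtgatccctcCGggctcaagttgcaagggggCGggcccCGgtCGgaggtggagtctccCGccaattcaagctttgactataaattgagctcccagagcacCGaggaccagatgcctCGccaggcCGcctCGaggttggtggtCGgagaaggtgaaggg

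The spacing of CpGs tied these sequences to the bisulfite data. All 13 CpGs of the Meg3 sequence were listed in the deposited files at the same distances from the Meg3 start. For Dio3, 17 of 25 CpGs were listed, and for Dlk1 only 3 of 9. The Rian promoter sequence in RefSeq holds no CpG, and no entry for Rtl1 was in the table. The letters TGCCGC, which the imprint-keeping protein ZFP57 reads when methylated, were searched on both strands and occur once in the Meg3 sequence, 190 bases before the start and around its CpG 3, and not in the Dlk1, Rian or Dio3 sequence. Of 32851 promoter entries of this length, 11.6% hold them. The letters TGACGTCA, a full cAMP response element, occur 57 bases before the Meg3 start around its CpG 9 and in 1.79% of entries. A match of letters is a description and shows no binding.

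The maternal RNAs of the domain were made in both genotypes and at close levels. Rian, a long noncoding RNA that hosts small nucleolar RNAs (mm9 chromosome 12, 110842155 to 110899921), stood at 93.1 FPKM in WT and at 100.4 in TetTKO. FPKM counts sequenced fragments per length of transcript and per size of library. Meg3, a noncoding RNA that acts in the nucleus (110779206 to 110809939), stood at 7.28 FPKM in WT and at 8.87 in TetTKO. TetTKO was thus the higher of the 2 libraries for both, by 1.08-fold and 1.22-fold in plain ratio. In bulk RNA, fewer cells of a type and less RNA per cell cannot be told apart.

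Levels per length differed far more between these genes than between the genotypes. Rian FPKM was 12.8 times that of Meg3 in WT and 11.3 times in TetTKO. Rian stood above 91.6% of the 10984 genes that reached 1 FPKM in WT or TetTKO, and Meg3 above 44.8%, both in WT.

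The paternal genes were low or near 0. Rtl1, a retrotransposon-derived gene needed in the placenta (110828379 to 110833613), stood at 2.05 FPKM in WT and at 2.11 in TetTKO. The symbol 6430411K18Rik, which lies inside the Rtl1 interval and is a RefSeq synonym of Rtl1, had 4.59 and 5.08 FPKM. RNA made across this interval from the other strand on the maternal copy is well known, and whether the authors' counting used the strand is not given in the sources used here, so these values cannot be assigned to a strand. Dlk1, which codes for a membrane protein related to Notch ligands (110691033 to 110701546), was at 0.07 FPKM in WT and at 0.17 in TetTKO. Dio3, the enzyme that inactivates thyroid hormone (111517440 to 111519307), had 0.68 and 0.79 FPKM. Neither Dlk1 nor Dio3 reached 1 FPKM in a library, and Dio3os and 3110009F21Rik, the remaining listed genes of the region, were at 0 in both.

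No member passed a 2-fold difference in log2(FPKM + 1), and the same rule took 2.61% of all genes with at least 1 FPKM (1.77% higher and 0.847% lower in TetTKO). The values of log2((TetTKO + 1)/(WT + 1)) were 0.25 for Meg3, 0.11 for Rian and 0.03 for Rtl1, the 3 members that reached 1 FPKM. Their median was 0.11, against -0.01 over all genes with at least 1 FPKM. For Dlk1 and Dio3 the values were 0.13 and 0.09, and the plain ratio of 2.43 for Dlk1 rests on 2 values under 1 FPKM. All 5 listed members therefore had the higher value in TetTKO, but by amounts that many genes exceed: 41.5% of genes with at least 1 FPKM differed by at least as much as Meg3 in either direction, and 92.6% by at least as much as Rtl1. With 1 library a genotype, these differences cannot be set against culture to culture spread.

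**Figure D1:**
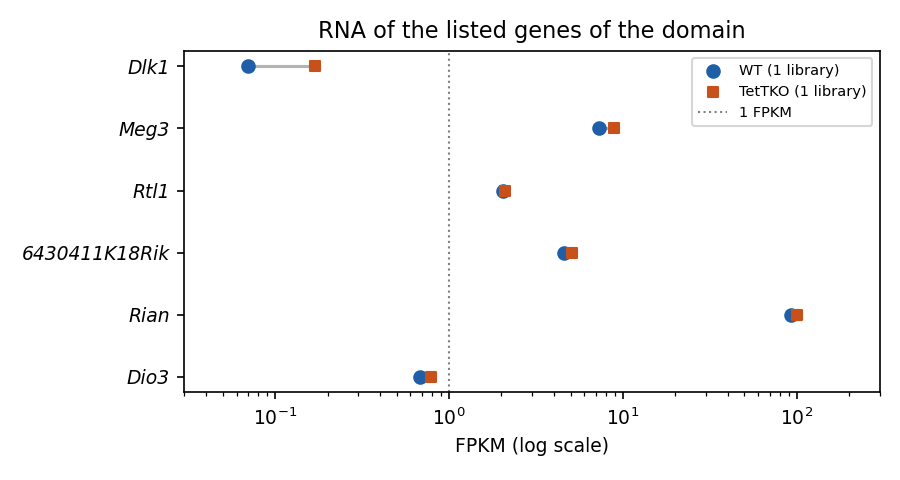
FPKM on a log axis for the 5 listed members and 6430411K18Rik, with 1 point for each library (circle WT, square TetTKO). The points of Rian, Meg3 and Rtl1 nearly coincide, and Dlk1 and Dio3 lie to the left of the dotted line at 1 FPKM in both libraries.

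Methylation of the region was high in both libraries and lower in TetTKO. The mean over CpGs was 75.5% in WT and 72.0% in TetTKO, which is -3.49 percentage points, beside -4.75 for chromosome 12 and -4.45 for the autosomes and X. Of the 744 windows, 533 (71.6%) were lower in TetTKO, against 72.1% of all windows of the genome. Windows of at least 80% made up 66.0% of the region in WT and 34.4% in TetTKO, and 49.8% and 19.9% of the genome's windows. The mean coverage per listed CpG in the region was 8.45 reads in WT and 9.65 in TetTKO. These were 0.911 and 0.921 of each library's mean, so the region did not stand apart in coverage between the libraries.

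Most segments had a lower value in TetTKO by a few points, less than the genome's median window difference of -5.79, and the Dlk1 and Dio3 intervals went the other way. The Meg3 interval had 72.0% in WT and 69.9% in TetTKO. The Rian interval had 76.5% and 73.4%, and Rtl1 had 85.6% and 83.2%. The 617518 bp between Rian and Dio3, in which Mirg lies, had 78.1% and 73.6%. In contrast, the Dlk1 interval had 48.0% in WT and 55.5% in TetTKO over 138 CpGs, and the Dio3 interval 10.3% and 24.9% over 96 CpGs. Of the 5 listed members, Meg3, Rian and Rtl1 were thus lower in TetTKO and Dlk1 and Dio3 were higher, the last 2 by 7.43 and 14.5 points. Measured against the genome's median window, Meg3, Rian and Rtl1 too were higher, by 3.68, 2.68 and 3.41 points. That reference is a median over windows, whereas the segment values are means over CpGs. The genome's mean over CpGs differed by less, -4.45 points, and the stretch between Rian and Dio3 was at -4.49. Whether the segments differ from each other was not tested.

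**Figure D2:**
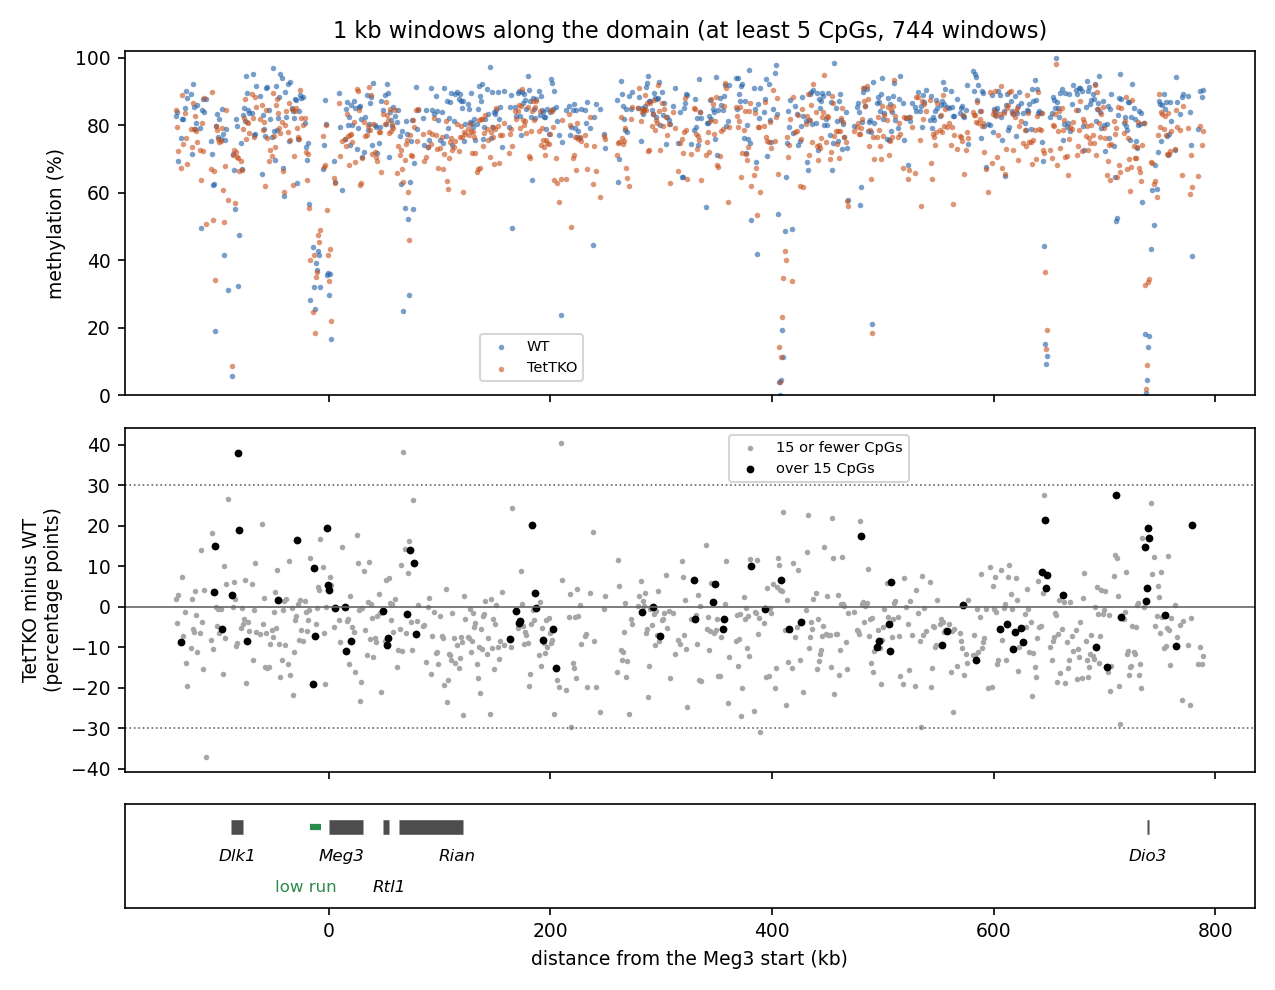
Top, methylation of each 1 kb window (percent) in WT and TetTKO against the distance from the Meg3 start; middle, TetTKO minus WT in percentage points with dotted lines at 30 points; bottom, the member intervals and the low run before Meg3 in green. Both libraries dip at the start of Dlk1, before and at Meg3 and at Dio3, and most differences lie below 0.

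The gap between Dlk1 and Meg3 (110701547 to 110779205) held a broad stretch of intermediate methylation in both genotypes. From 110762000 to 110771999, a run of 9 neighbouring windows with at least 5 CpGs was under 50% in WT. It began 60454 bp after the end of Dlk1 and ended 7207 bp before the Meg3 start, inside the gap where the IG-DMR is known to lie. The run was found by its WT values, after they were seen, and its WT level is therefore a description. The same windows were under 50% in TetTKO too, and choosing the run from TetTKO gave the same ends. Reads were not assigned to parental copies, so methylation of 1 copy and a mixture of cells cannot be told apart.

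Over the 167 CpGs of this run, the mean was 34.0% in WT against 33.4% in TetTKO (-0.55 points). Counting reads, 35.5% of 1609 read calls were methylated in WT (exact 95% binomial interval 33.1 to 37.9) and 34.0% of 1779 in TetTKO (31.8 to 36.2). These intervals overlap, and they cover counting error only. Individual CpGs went both ways, with 77 higher and 84 lower in TetTKO. Before the run, the gap had 82.5% in WT and 78.8% in TetTKO over 522 CpGs. In the 5 kb between the run and the Meg3 start region it had 77.5% and 72.8%. The stretch thus lay between more methylated DNA, though the window directly before it, at 110761000, had only 56.5% in WT and 55.6% in TetTKO.

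Within the run the windows did not move together. The window at 110764000 to 110764999 (24 CpGs) had 42.6% of 235 read calls methylated in WT (36.1 to 49.1) and 25.1% of 203 in TetTKO (19.3 to 31.7). The window at 110766000 to 110766999, with 40 CpGs the richest of the run, had 28.6% of 395 (24.2 to 33.3) and 19.2% of 417 (15.5 to 23.3). In both windows TetTKO was the lower, and the counting intervals did not overlap. The window between these, at 110765000 to 110765999 (36 CpGs), had 34.7% of 383 (29.96 to 39.7) and 39.6% of 419 (34.9 to 44.5), with overlapping intervals. The other windows of over 15 CpGs in the gap lay before the run or at the Meg3 start, and those before it had 89.5% and 80.9% (110705000 to 110705999), 82.1% and 83.7% (110733000 to 110733999) and 62.8% and 79.1% (110750000 to 110750999). Over all 9 windows of the run, 5 were higher and 4 lower in TetTKO, with mean differences from -19.2 to 16.7 points.

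**Figure D3:**
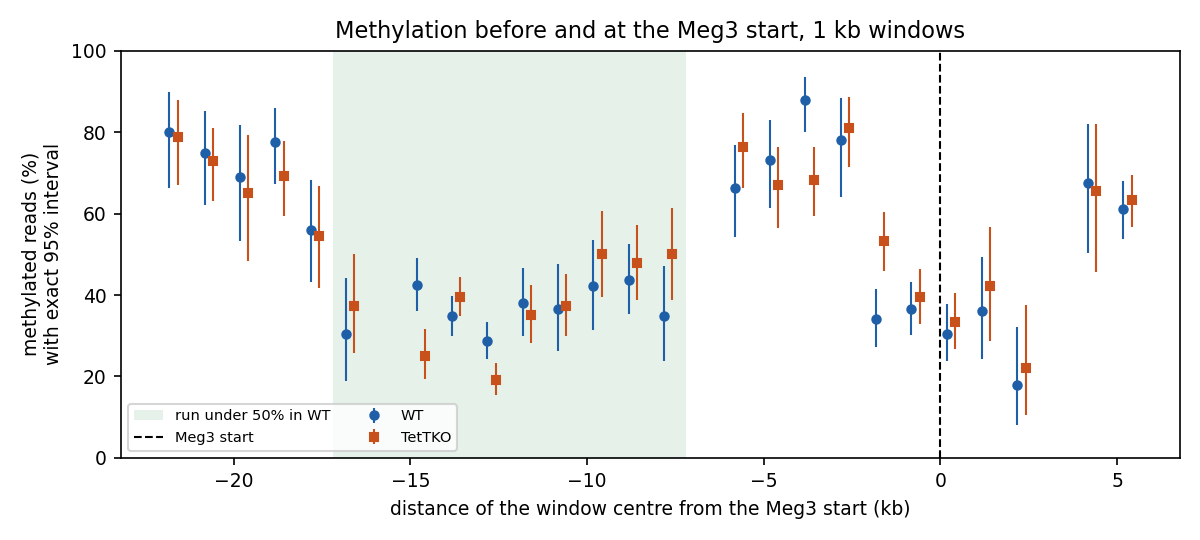
Share of methylated reads (percent) in 1 kb windows with exact 95% binomial intervals in WT (circles) and TetTKO (squares), against the distance from the Meg3 start; the shaded band is the run under 50% in WT. In the band all points lie at 19 to 50%, with 2 windows whose intervals do not overlap, and both rise above 60% between the band and the Meg3 start region.

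The Meg3 promoter was also of intermediate methylation in both libraries. From 1000 bp before to 500 bp after the Meg3 start, 37 CpGs averaged 32.5% in WT against 33.9% in TetTKO (1.43 points). From pooled read calls the difference was -0.30, so its direction is not settled at this depth. Over the 13 CpGs of the printed Meg3 sequence, 36.1% of 97 read calls were methylated in WT (26.6 to 46.5) and 29.9% of 107 in TetTKO (21.4 to 39.5). Single CpGs ran from 20.0% to 50.0% in WT and from 11.1% to 57.1% in TetTKO, each on 5 to 12 reads, with 7 higher and 6 lower in TetTKO. CpG 3, counted from the left, within the TGCCGC match, had 4 of 12 reads methylated in WT against 2 of 5 in TetTKO, and CpG 9, within TGACGTCA, 1 of 5 against 3 of 11. None of the 13 CpGs was fully methylated or free of methylation in either library.

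**Figure D4:**
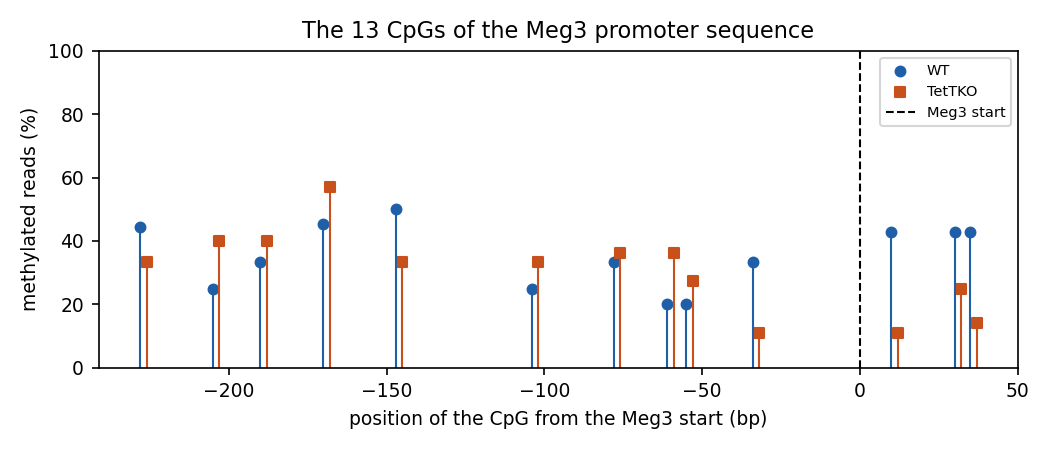
Share of methylated reads (percent) at each of the 13 CpGs of the Meg3 promoter sequence, against the distance from the gene start in bp, for WT (circles) and TetTKO (squares). All points lie between 11.1% and 57.1%, and the 3 CpGs after the start are lower in TetTKO than in WT.

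The libraries differed more in other bins around the Meg3 start. The 5 neighbouring windows from 110777000 to 110781999, which hold the start, were under 50% in WT and were picked for that. Over their 82 CpGs the mean was 32.5% in WT against 41.0% in TetTKO (8.55 points), and all 5 windows were higher in TetTKO. By reads the shares were 33.1% (29.6 to 36.8) and 40.6% (37.0 to 44.4), whose intervals do not overlap. Picking windows by low WT values tilts this contrast towards a higher TetTKO value, so it is a description and no test. The window at 110777000 had 54.9% in TetTKO, and a run picked by TetTKO values would leave it out. The bins of 500 bp that began 2206, 1706 and 1206 bp before the start were higher in TetTKO by 14.9, 22.2 and 14.6 points, while those that began 706 and 206 bp before it differed by -0.01 and -1.27 points. After the start, the bin that began 294 bp in was higher by 14.6 points and those at 1294 and 1794 bp by 4.67 and 4.17. Widening the promoter to 2000 bp before and 1000 bp after the start therefore moved its difference from 1.43 to 8.74 points.

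Inside Dlk1 the difference was much larger. The Dlk1 start was nearly unmethylated, at 5.77% in WT and 8.59% in TetTKO in the window that holds it (110691000 to 110691999, 32 CpGs). Just before it, the 3 listed CpGs of the printed Dlk1 sequence had 10 of 18 read calls methylated in WT and 6 of 17 in TetTKO, too few to compare. From 1000 bp before to 500 bp after the Dlk1 start, 22 CpGs averaged 14.8% against 14.5%. The window at 110697000 to 110697999 (18 CpGs) had 34.4% of 186 read calls methylated in WT (27.6 to 41.7) and 73.8% of 164 in TetTKO (66.4 to 80.3), a mean difference of 37.9 points. The next window, at 110698000 to 110698999 (23 CpGs), had 41.1% of 209 (34.4 to 48.1) and 67.3% of 153 (59.3 to 74.7), a mean difference of 19.0 points. Of the genome's windows with over 15 CpGs and 10 to 50% in WT, 98.2% had a smaller difference than the first. For the second this share was 72.2%. Over both windows 32 of 41 CpGs were higher in TetTKO and 8 lower. Further on, the last 500 bp of Dlk1 and the 1000 bp after it were at 84.6% and 81.8%. A secondary region methylated on the paternal copy is known towards the end of Dlk1. Whether these windows lie in it, or in an exon, was not determined, since no genome or annotation of mm9 was used here.

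Dio3 showed a gain around an unmethylated start. Its promoter CpGs were essentially free of methylation, with 1 of 138 read calls methylated in WT and 0 of 138 in TetTKO, and a count of 0, by the limit of 3 read calls of the 138, allows a share of up to 2.17% there. The window before, at 111516000 to 111516999 with 112 CpGs, had 0.58% in WT and 1.99% in TetTKO. To its left, the window at 111515000 to 111515999 had 18.04% and 32.7%. In the second part of the Dio3 interval, at 111518000 to 111518999 (46 CpGs), 12.1% of 478 read calls were methylated in WT (9.34 to 15.4) and 33.1% of 356 in TetTKO (28.3 to 38.3). The following window had 17.5% and 34.5%. By window means over CpGs, the edges of this low-methylated stretch were higher in TetTKO by 14.7 to 19.4 points, while its centre differed by 1.41 to 4.50 points. Dio3 RNA stayed under 1 FPKM in both libraries.

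In Rian, the RefSeq promoter holds no CpG and the stretch around its start had 86.4% in WT and 78.0% in TetTKO over 6 CpGs. Of the 46 Rian windows 35 were lower in TetTKO, and among the exceptions were less methylated windows further inside. At 110851000 to 110851999 (15 CpGs) methylation was 29.6% in WT and 45.9% in TetTKO, at 110852000 to 110852999 (18 CpGs) 63.2% and 77.0%, and at 110855000 to 110855999 (14 CpGs) 55.3% and 81.6%. The 2 windows between these, at 110853000 and 110854000, were lower in TetTKO, with differences of -3.91 and -10.8 points. The last 500 bp of Rian and the 1000 bp after it had 88.7% and 63.4% over 8 CpGs, each of them lower in TetTKO. For Rtl1 the table gives no strand, and its left end had 85.4% in WT against 82.3% in TetTKO and its right end 75.8% against 77.9%.

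Few windows of the region differed by 30 points. Higher in TetTKO by that much were 3 of 744 windows (0.403%), against 0.67% of all windows of the genome, and 2 (0.269%) were lower, against 0.638%. These shares are near the background and say nothing particular of the region. Besides the Dlk1 window, the gains were at 110988000 to 110988999 between Rian and Dio3 (8 CpGs, 23.8% and 64.1%) and at 110846000 to 110846999 in Rian (5 CpGs, 25% and 63.2%). The losses were at 110668000 to 110668999 before Dlk1 (5 CpGs, 87.8% and 50.7%) and at 111168000 to 111168999 between Rian and Dio3 (13 CpGs, 91.1% and 60.2%). Only the Dlk1 gain rested on over 15 CpGs.

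The windows of the intergenic run were placed against others of like density and level. Windows with over 15 CpGs and 10 to 50% methylation in WT were mostly higher in TetTKO: 90.2% of 21430 in the genome, with a median of 12.0 points and quartiles of 5.06 and 20.0. In the region there were 15 such windows. The 9 outside the run and the Meg3 start were all higher, by 7.75 to 37.9 points. The 3 at the Meg3 start were higher by at most 19.3 points. Of the 3 in the intergenic run, 1 was higher and 2 were lower, at -19.2 and -7.25 points. Of the 21430 windows, 0.112% and 1.54% had a smaller difference than these 2, and 40.7% a smaller one than the third (9.40 points). For the 3 at the Meg3 start these shares were 73.1%, 25.9% and 21.2%. The 3 windows of the run are neighbours at 1 locus and not separate cases. At least 30 points of gain were seen in 1 of the 15, against 7.33% of the genome's. With the class set from TetTKO in place of WT, 87.4% of 20163 windows were higher. The same 3 windows of the run fell in this class too, so their values were unchanged and give no second check. In that class the 2 windows left at the Meg3 start were higher by at most 5.29 points, and no window of the region gained 30 points (maximum 21.5), against 321 of the 20163. With 1 library a genotype this contrast was not tested.

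**Figure D5:**
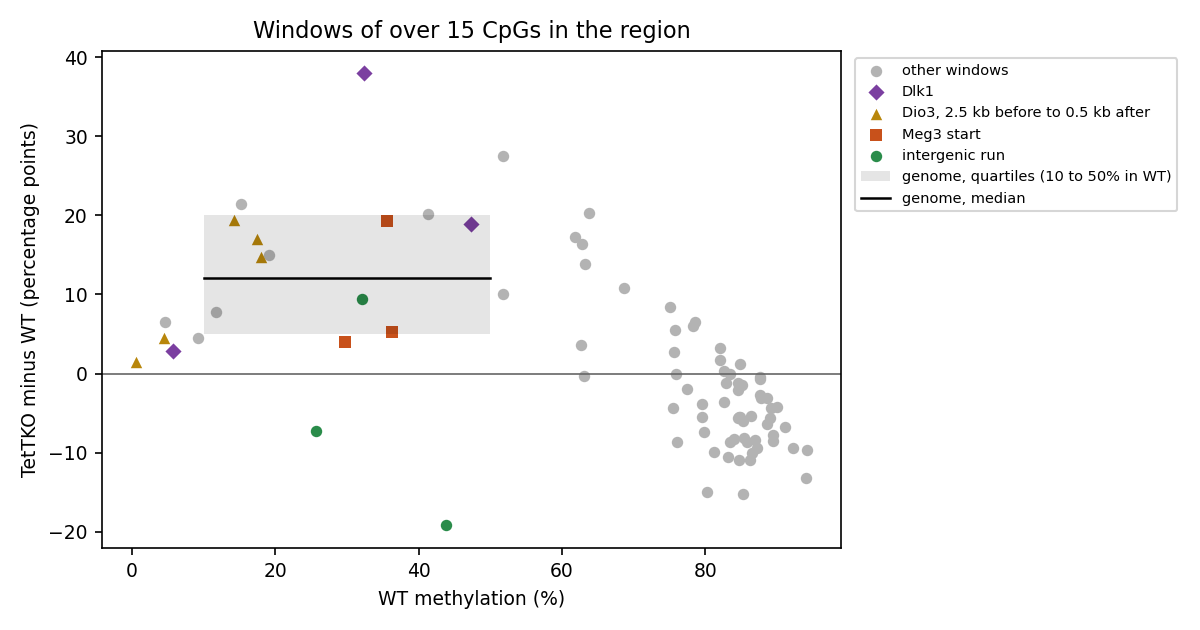
TetTKO minus WT methylation in percentage points against WT methylation (percent) for windows of over 15 CpGs in the region, with the genome's median (12.0) and quartiles for windows of 10 to 50% as line and band. Windows of Dlk1, Dio3 and the Meg3 start lie above 0, whereas 2 of the 3 in the intergenic run lie below it.

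Genes that act on imprints were read from a list of 24, of which 22 reached 1 FPKM. Dnmt3b, a de novo DNA methyltransferase, passed the 2-fold rule upward (66.8 FPKM in WT and 149 in TetTKO), and the targeted Tet1 (15.1 and 4.36) and Tet2 (14.9 and 4.13) passed it downward. Tet3 had 0.32 and 0.27 FPKM, and such values do not read the mutations themselves. Of all genes with at least 1 FPKM the rule took 1.77% upward and 0.847% downward. The list median was 0.04, beside -0.01 over all genes. Zfp57, whose protein keeps imprints methylated, had 73.2 and 63.6 FPKM, and its partner Trim28 1013 and 990. Dnmt3a, on chromosome 12 outside the region, had 14.7 and 30.3 FPKM. Its plain ratio was 2.06, and its value of 0.99 on the log2(FPKM + 1) scale fell just short of the 2-fold rule. Dppa3, whose protein guards the Meg3 region against methylation, had 46.4 and 37.0, and Ezh2 of the Polycomb complex 57.7 and 37.0. The last 2, and Tet3, lie on chromosome 6, where the median log2 difference of genes was -0.43. WT coverage there was 1.29 times the library's mean, against 0.964 in TetTKO.

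Lists tied to the paternal genes held no gene past 2-fold on the log2(FPKM + 1) scale, although the plain ratios of Dll1 and Thra were 2.26 and 2.08. The same rule took 2.61% of all genes with at least 1 FPKM, so finding none in lists this short says nothing particular of them. Of 12 Notch pathway genes, 10 reached 1 FPKM, with a median of 0.06. The ligand gene Dll1 had 1.52 FPKM in WT and 3.43 in TetTKO, Jag1 5.28 and 7.36, and the target gene Hes1 10.6 and 8.17. Of 5 thyroid hormone genes only the receptor gene Thra reached 1 FPKM, at 0.91 and 1.89. The 10 nearest genes of at least 1 FPKM on both sides of the region, among them Yy1 (33.9 and 39.2 FPKM) and Ppp2r5c (60.2 and 47.0), ran from -0.36 to 0.39 on the log2 scale, 6 higher and 4 lower. The genes nearest to a member in log2(FPKM + 1) over both libraries were Cox11, Fitm2 and Tpm2 for Meg3, Ndufa10, Luc7l and Zc3h15 for Rian, and Slc30a2, Sowahc and Inpp5a for Rtl1. Likeness over only 2 values is weak.

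The cells carried the markers of their label. All 8 embryonic stem cell markers exceeded 26 FPKM in both libraries, and summed to 6055 FPKM in WT and 5960 in TetTKO, a sum carried by Dppa5a (3211 and 3344). Of the others, Esrrb had 49.3 and 26.4 FPKM, Nanog 116 and 71.0 and Zfp42 698 and 513. Pou5f1 (1178 and 1092) and Sox2 (192 and 187) were slightly lower in TetTKO, and Tdgf1 (573 and 679) and Utf1 (36.7 and 47.6) were higher. The list median was -0.07 on the log2 scale, beside -0.01 over all genes. Nanog lies on chromosome 6, where the median log2 difference was -0.43 and bisulfite coverage was 1.29 times the library's mean in WT and 0.964 in TetTKO. Summed FPKM of the other lists was 1.58 and 2.37 for 7 fibroblast genes, of which Lum was at 0 in both, 2.12 and 7.61 for 6 primitive endoderm genes, 9.19 and 14.98 for 6 trophoblast genes, 5.44 and 9.68 for 4 neuroectoderm genes and 1.2 and 2.25 for 4 mesoderm genes. Primitive endoderm markers were higher in TetTKO, with Pdgfra, the 1 that passed the 2-fold rule, at 0.73 and 3.16 FPKM. Gcm1 of the trophoblast list (0.15 and 1.41 FPKM) and Nes of the neuroectoderm list (2.59 and 8.08) passed it upward too. The rule took 1.77% of all genes with at least 1 FPKM upward. In the neuroectoderm list Pax6 (2.63 and 1.32) and Neurog2 (0.04 and 0.02) were lower in TetTKO, and Sox1 (0.18 and 0.26) was higher. Most of the trophoblast sum came from Tfap2c (8.25 and 11.11). The part of such cells in the values of the domain was not tested.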

How the data were processed

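Per the labels' protocols, bisulfite libraries were sequenced as pairs of 110 bp and ribosome-depleted directional RNA libraries as single reads of 50 bp. The submitters' processing notes name mm9, TopHat2 2.0.2 and Cufflinks 2.0.2, besides Bismark 0.7.9, Bowtie, SAMtools and Trim Galore. Settings and gene models were not stated there. The deposited methylation files give a fraction per CpG and the counts of methylated and all reads behind it, at a coverage of at least 5 in both libraries (median 8 and 10), with 132749634 and 150076506 read calls on the autosomes and X. The deposited FPKM values are rounded to 2 decimals, so the depth of the RNA libraries is unknown. Deposited gene starts count from 0, as CpG spacing and RefSeq lengths show, and are printed 1 higher. Bisulfite reads 5-methylcytosine and 5-hydroxymethylcytosine alike.

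Rows of a symbol were summed, and genes of at least 1 FPKM in either library were compared on the log2 scale after a pseudocount of 1 FPKM was added to both values, a scale on which low genes change less than in plain ratio. Methylation of a stretch is the mean over its CpGs, whereas intervals and read shares come from pooled read calls (exact Clopper-Pearson, 95%). A read enters once per CpG it covers, and PCR copies are not independent molecules, so these intervals are too narrow. Calls were made by size alone, and no p-value was computed. Python 3.11.15, numpy 2.4.6, pandas 2.3.3 and scipy 1.17.1 were used, and the window and fold rules were tested on simulated data. All 6 members were named, with windows past 30 points with at least 10 CpGs, windows of over 15 CpGs between Dlk1 and Meg3, windows at 5′ ends, the 3 nearest genes of each member of at least 1 FPKM, and list members past 2-fold with up to 6 others. Members and lists were chosen with earlier results of these data known, and 3 windows past 30 points with under 10 CpGs, windows inside Rian and beside Dio3, the low runs and TGACGTCA were picked after values were seen. Alternatives were other pseudocounts, scalings, coverage, pooling and window settings.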

Additional observations from a re-analysis of the deposited data

How the results depend on the processing

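Under pseudocounts of 0.1 and 5 FPKM, median or upper quartile rescaling, no filter on low values, or the row of highest mean FPKM per symbol, the number of members called stayed 0, and wherever the log2 difference was recomputed each listed member was the higher in TetTKO. With pseudocounts of 0.1 and 5 the value for Dlk1, 0.13, was 0.67 and 0.03, that for Dio3, 0.09, was 0.19 and 0.03, and that for Rtl1, 0.03, was 0.04 and 0.01 (0.05 and 0.06 with median and upper quartile rescaling). The counts of windows past the threshold in the region, 3 gained and 2 lost, were 4 and 3 with windows shifted by 500 bp, 0 and 0 with a coverage of at least 10 (82 windows left), 5 and 3 with pooled reads, 1 and 1 with at least 10 CpGs, 17 and 33 at 20 points, and 9 and 1 when centred on the genome's median window. The mean difference of the whole region, -3.49 points, was -5.35 with a coverage of at least 10, and that of the gap between Dlk1 and Meg3, -2.16, was -0.53. At that coverage Rian went from -3.10 to -8.25, Dlk1 from 7.43 to 12.6 (5 CpGs), the flank before Dlk1 from -3.01 to -8.86 and the flank after Dio3 from -1.98 to -7.15. Centring subtracts the genome's median window difference of -5.79 points by construction, whereas the genome's mean over CpGs differed by -4.45. It turned the whole region to 2.30, the gap to 3.63, the flank before Dlk1 to 2.77 and Meg3 to Rtl1 to 1.54. It turned Rtl1 to Rian to 1.39, Rian to 2.68, Rian to Dio3 to 1.29, Meg3 to 3.68, Rtl1 to 3.41 and the flank after Dio3 to 3.80. Rtl1 to Rian was also turned by a coverage of at least 10, to 0.57 over 18 CpGs. The Meg3 5′ end, 1.43, was -0.30 with pooled reads, -0.71 over 7 CpGs with a coverage of at least 10, and 8.74 from 2000 bp before to 1000 bp after the start. The intergenic run, -0.55, was 3.65 with a coverage of at least 10 (50 CpGs) and 5.24 when centred, and the Meg3 start windows, 8.55, were 14.3 when centred. The settings of both runs and of the Dlk1 windows were chosen after seeing the data. The Dlk1 windows, 27.3, ran from 27.3 to 33.1, and a coverage of at least 10 left under 5 CpGs there. The causes of the differences with coverage were not tested. No paired analysis was possible because each genotype had 1 library of a kind. At the 5 to 12 reads of each Meg3 promoter CpG, differences at single CpGs were not detectable, and allele-specific methylation was not measured.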

Other observations

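Low-methylated, CpG-rich stretches also lay far from the listed genes of the domain, between Rian and Dio3, and they were picked after their values were seen. At 111425000 to 111425999 (19 CpGs) methylation was 15.2% in WT and 36.6% in TetTKO, and by reads 18.1% (exact 95% interval 11.8 to 25.9) and 41.2% (33.2 to 49.6). The neighbouring windows at 111426000 and 111427000, with 38 and 49 CpGs, went from 9.29% in WT to 13.8% in TetTKO and from 11.7% to 19.5%. At 111187000 to 111187999 (29 CpGs) the values were 4.66% and 11.2%. Before Dlk1, the window at 110676000 to 110676999 (18 CpGs) had 19.1% and 34.1%, and after Dio3 the window at 111558000 to 111558999 (35 CpGs) had 41.3% and 61.5%. All 6 windows were higher in TetTKO, as were 90.2% of the genome's windows of over 15 CpGs and 10 to 50% in WT. This direction is thus not particular to the windows of that class. Those at 111426000 and 111187000, under 10% in WT, lie outside the class and have no such background here.

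RefSeq places 57 microRNA hairpins with 112 mature microRNAs between the Meg3 start and the Mirg end. None of these hairpin genes is listed in the expression files, so the microRNA output of the domain was not analysed here.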
